A study of Mus musculus with 4 samples.

Results

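Cytokine receptor chains set which growth and inflammatory signals a myeloid cell can read, and 10 of them were followed here in suppressor neutrophils of tumour-bearing mice: Csf3r, Csf2ra, Csf2rb, Csf2rb2, Csf1r, Il6ra, Il6st, Il4ra, Il10ra and Ifngr1. They were taken by gene name, each kept once, from a deposited count table with 18751 distinct gene names, and all 10 had a row. RNA was sequenced from PMN-MDSCs, the polymorphonuclear class of myeloid-derived suppressor cells that inhibits T cells, in 4 libraries. The hosts of all libraries were C57BL/6 mice, 8 weeks old, with B16-F10, a transplantable melanoma line, grafted under the skin, and cells were taken at day 15 by magnetic separation with a mouse neutrophil enrichment kit. The genotypes were wild type (WT, 2 libraries) and CD300ld knockout (KO, 2 libraries), where CD300ld is a myeloid receptor of the CD300 family. The labels name neither the organ nor the deleted stretch of the gene. Whether each library is a different animal is also unstated, and the p-values cover the spread between these libraries alone, which may be technical.

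Receptors of this kind have no enzyme of their own, apart from Csf1r, which is a receptor tyrosine kinase. The others work in receptor complexes that carry JAK kinases, though not every chain binds one itself. These kinases phosphorylate STAT factors once the cytokine joins the chains, and SOCS proteins end the signal. Granulocyte colony-stimulating factor (G-CSF) acts through Csf3r and is the main driver of neutrophil production, while GM-CSF is read by the α chain Csf2ra together with the common β chain Csf2rb. Mice also carry Csf2rb2, a near copy of Csf2rb that serves interleukin-3 (IL-3). Tumour-derived G-CSF, GM-CSF and IL-6 are known to expand PMN-MDSCs.

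Libraries held 674599 to 920839 counts, and 0 counts of a gene allow a level of up to 3.26 to 4.45 CPM (counts scaled to library size), for counting error only. Csf2rb, the best counted of the 10 in WT, had 126 counts in WT library 1. Cd300ld itself was counted 0 and 11 times in WT against 2 and 3 times in KO, too few to check the genotype labels. The preparation was mixed: 18 erythroid genes took 15.4% and 16.4% of counts in WT and at least 19.8% in KO, and 17 markers of mature neutrophils took 1.90% and 1.99% in WT but 0.366% and 0.349% in KO. Ly6g, the defining surface marker of mouse neutrophils, was counted 49 and 90 times in WT against 8 and 8 times in KO. Among melanoma markers, Pmel had 0 counts in 3 libraries and 2 in KO library 2. In such bulk RNA, fewer cells of a type and less RNA per cell cannot be told apart.

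The counts of Csf2rb and Csf2rb2 rest on near-identical genes, so their sequences are shown first. Their coding sequences, on mouse chromosome 15 in opposite orientation, had 2503 identical bases among 2628 aligned (95.2%), with a longest identical run of 242 bases. Of all 36-base windows of the Csf2rb transcript, 24.9% also occurred in the Csf2rb2 transcript, as did 18.4% of 50-base windows and 6.96% of 100-base windows. Neither the read length nor the handling of reads that match several genes is stated in the labels, and the counts of both genes are therefore uncertain as separate values. The 150-base stretch with the most differences is printed below from the GENCODE M21 transcripts (GRCm38), with the 25 differing bases in capitals. It spans coding bases 300 to 449 of Csf2rb and 303 to 452 of Csf2rb2.
Csf2rb: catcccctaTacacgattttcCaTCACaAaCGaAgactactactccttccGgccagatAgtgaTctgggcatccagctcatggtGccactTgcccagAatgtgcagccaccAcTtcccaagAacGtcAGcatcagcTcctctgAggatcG
Csf2rb2: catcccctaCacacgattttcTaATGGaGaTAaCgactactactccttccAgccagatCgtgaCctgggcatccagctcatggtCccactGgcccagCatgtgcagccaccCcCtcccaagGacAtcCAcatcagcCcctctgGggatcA

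Promoters were read because PU.1, encoded by Sfpi1 (now Spi1), is known to drive genes of colony-stimulating factor receptors. RefSeq promoter windows (GRCm38.p6, 250 bases before to 50 after the start site) were matched for 7 of the 10 genes. The windows used, those of the background included, left out 1 chromosome. Csf2rb, Csf1r and Il10ra had no window among those used, so their promoters were not searched. On either strand, the PU.1-like letters GAGGAA occurred in 4 of these 7 windows, those of Csf3r, Csf2ra, Csf2rb2 and Il6ra, against 28.3% of 32851 promoter windows of the same length. The STAT letters TTCNNNGAA occurred in 1 window, that of Csf2rb2 (8.3% of all windows). The letters TTGCNNAA (C/EBP-like, 10.8%) and TGTGGT (RUNX, 16.8%) occurred in 0 of the 7. The windows of Csf3r (chr4:126024409-126024708, plus strand) and Csf2ra (chr19:61228369-61228668, minus strand) are printed as receptors of the granulocytic factors, with GAGGAA in capitals. It begins 86 bases before the start of Csf3r, and 14 and 8 bases before that of Csf2ra, where the matches adjoin.
Csf3r: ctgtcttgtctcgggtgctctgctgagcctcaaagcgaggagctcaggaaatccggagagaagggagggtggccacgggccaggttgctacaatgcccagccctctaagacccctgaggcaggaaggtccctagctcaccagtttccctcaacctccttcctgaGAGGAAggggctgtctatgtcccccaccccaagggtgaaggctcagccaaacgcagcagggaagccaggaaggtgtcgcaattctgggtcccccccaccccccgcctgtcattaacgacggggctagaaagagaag
Csf2ra: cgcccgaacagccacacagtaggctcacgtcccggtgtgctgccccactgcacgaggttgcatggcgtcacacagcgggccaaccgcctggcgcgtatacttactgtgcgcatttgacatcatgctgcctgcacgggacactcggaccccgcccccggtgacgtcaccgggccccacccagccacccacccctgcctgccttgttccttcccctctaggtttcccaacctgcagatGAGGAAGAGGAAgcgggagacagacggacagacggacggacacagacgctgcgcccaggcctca
Sfpi1 was counted 123 and 184 times in WT against 122 and 69 times in KO, a log2 fold change of −0.73 ± 0.24 (SE) with adjusted p = 0.0951 in edgeR. It passed the threshold in 4 of 13 alternative settings, and its value ran from −1.25 to −0.36. Sfpi1 was named after its values were seen. Any part of Sfpi1 or of these letters in the receptor values was not tested.

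**Figure D1:**
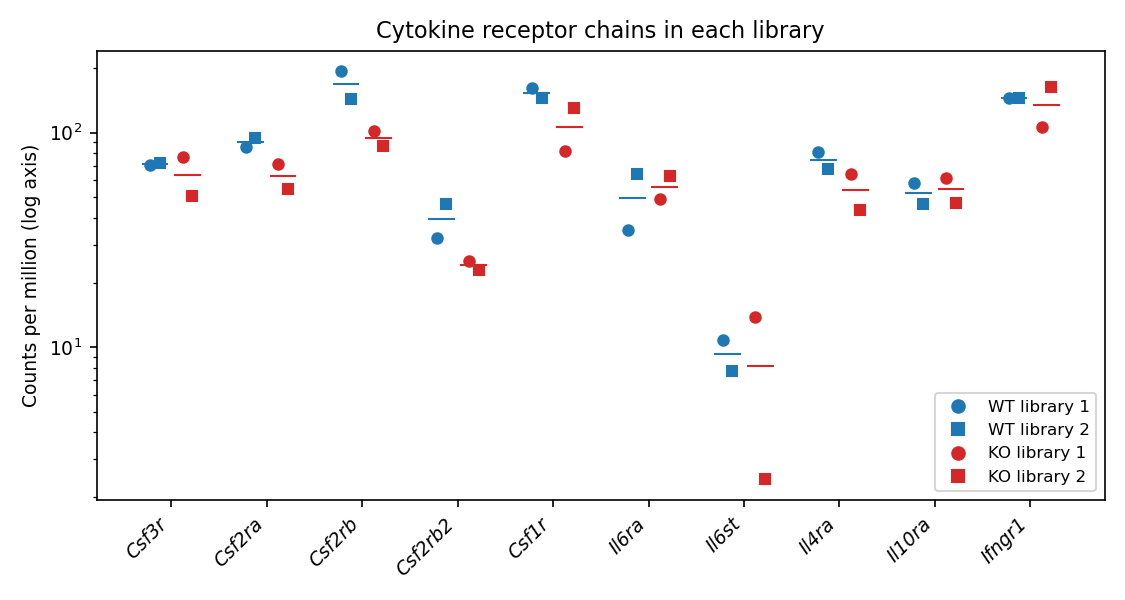
CPM (log axis) of the 10 receptor chains in each library, with circles for library 1, squares for library 2 and a line at the mean of each genotype. Both KO values of Csf2ra, Csf2rb, Csf2rb2, Csf1r and Il4ra lie below both WT values, and Il6st is far below the other chains.

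Levels between genes were compared as WT CPM per kilobase of the longest protein-coding transcript in GENCODE M21. Ifngr1 stood highest at 68.5 ± 0.242 (mean ± SD, n = 2), followed by Csf2ra at 48.7 ± 3.11, Csf2rb at 34.4 ± 7.15 and Csf1r at 32.6 ± 2.43. Csf3r followed at 20.5 ± 0.273, Il10ra at 15.0 ± 2.39 and Il4ra at 14.2 ± 1.86. Csf2rb2 had 8.31 ± 2.13, Il6ra 5.76 ± 2.37 and Il6st 1.07 ± 0.244. The WT libraries of neighbours in this order overlapped for Csf2rb and Csf1r, for Il10ra and Il4ra, and for Csf2rb2 and Il6ra, so these pairs were not separated. An SD from 2 libraries can be smaller than counting error. In WT, Ifngr1 rested on 94 and 131 counts and Csf3r on 46 and 65. For the other neighbours, the lack of overlap between so few libraries therefore does not settle the order. The values of Il6ra and Il6st rest on long transcripts (8639 and 8678 bases).

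The comparison of KO with WT asks whether cells without CD300ld carry other levels of these receptor messages. The common β chain Csf2rb was the member that passed the test, at 94.5 ± 10.7 CPM in KO against 169 ± 35.0 CPM in WT (mean ± SD, n = 2 each). No receptor chain was called higher. Of the 10 genes, 9 passed the filter on low counts and Il6st did not. In edgeR's quasi-likelihood test with Benjamini-Hochberg adjustment over 7685 genes, 1 member was lower and 0 were higher at an adjusted p below 0.05, where 5.97% of tested genes were called, 3.27% lower and 2.71% higher. Among the 3490 tested genes within the mean CPM range of the members, 4.56% were called. At an unadjusted p below 0.05 there were 2 members, Csf2rb and Csf1r, both lower, where 18.9% of tested genes passed. DESeq2 called 0 members in either direction, and limma-voom 1 lower and 0 higher.

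Csf2rb, the signalling chain shared by the receptors for GM-CSF, IL-3 and IL-5, had 194 and 144 CPM in the WT libraries and 102 and 86.9 CPM in the KO libraries. Every KO value was below every WT value. It fell by 0.83 ± 0.23 on the log2 scale (95% interval −1.31 to −0.35, adjusted p = 0.0393 in edgeR), 1.79-fold lower in KO. The call ended without WT library 1 (−0.62, edgeR adjusted p = 0.210), without KO library 2 (−0.71, adjusted p = 0.133) and in DESeq2 (−0.83, adjusted p = 0.0699), while over all 13 alternatives the adjusted p ran from 0.00572 to 0.210. With Csf2rb and Csf2rb2 summed to 1 gene, an alternative chosen after seeing the data, the value was −0.81 ± 0.20 (adjusted p = 0.0206).

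Csf2rb2, the IL-3 chain, had 32.3 and 46.5 CPM in WT and 25.2 and 22.9 CPM in KO, from 19 to 42 counts a library. KO lay below WT here too, with a log2 fold change of −0.72 ± 0.41 (95% interval −1.59 to 0.15, adjusted p = 0.376 in edgeR), which did not pass. The share of Csf2rb2 in the counts of both β chains was 14.3% and 24.4% in WT (Wilson 95% intervals 9.54% to 20.9% and 18.6% to 31.4%) and 19.8% and 20.9% in KO (13.2% to 28.6% and 13.8% to 30.3%). The intervals cover counting error only. The genotypes overlapped in this share (exact permutation test, two-sided p = 1, where 0.333 is the smallest that 2 against 2 libraries allow).

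Csf2ra, the chain that binds GM-CSF, had 86.0 and 94.2 CPM in WT and 71.8 and 54.3 CPM in KO. The libraries did not overlap, and the log2 fold change was −0.52 ± 0.27 (95% interval −1.08 to 0.04, adjusted p = 0.308 in edgeR), short of the threshold. It ran from −0.74 to −0.33 over the alternatives. Csf2ra, Csf2rb and Csf2rb2 thus all had lower values in both KO libraries, and Csf2rb alone of these 3 was called. KO lay below WT without overlap in 23.6% of tested genes.

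Csf3r, the G-CSF receptor, had 70.7 and 72.0 CPM in WT and 76.8 and 50.7 CPM in KO. KO library 1 was the highest and KO library 2 the lowest of the 4. The log2 fold change was −0.17, with a 95% interval from −0.78 to 0.45 that leaves room for a fold of 0.584 to 1.36. In the same libraries 9 of 16 tested markers of mature neutrophils were called lower and 1 was called higher, and their median was −1.34. Over all tested genes, 3.27% were called lower and 2.71% higher. Set against the summed level of these 17 markers, Csf3r stood at 3.60 and 3.54 per 1000 marker counts in WT and at 20.1 and 14.4 in KO (exact permutation test, two-sided p = 0.333, the smallest possible here). This ratio was chosen after the values were seen.

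Csf1r, which macrophages and monocytes need for growth and survival, had 161 and 145 CPM in WT and 81.9 and 130.4 CPM in KO. The genotypes did not overlap, but the KO libraries lay further from each other than the nearest of them did from WT. The log2 fold change was −0.52 ± 0.24 (95% interval −1.03 to −0.02, unadjusted p = 0.0436, adjusted p = 0.246 in edgeR). Leaving out KO library 2 gave −0.90, and leaving out KO library 1 gave −0.24. In the same libraries 4 of 10 tested macrophage markers and 3 of 8 monocyte markers were called lower and 0 higher, with medians of −1.13 and −0.79. The share called lower over all tested genes was 3.27%. Summed macrophage markers stood at 811 and 789.9 CPM in WT and 349 and 442 CPM in KO, with the complement genes C1qa, C1qb and C1qc detected in every library. Of the 13 macrophage markers, Siglec1 and Timd4 had 0 counts in 1 KO library each. Siglec1 was counted 17 and 26 times in WT against 3 and 0 times in KO. Timd4 was counted 2 and 2 times in WT against 0 and 7 times in KO, so its 0 does not mark a loss. Per 1000 macrophage marker counts, Csf1r stood at 199 and 184 in WT and at 235 and 295 in KO, a ratio chosen after the values were seen (exact permutation test, two-sided p = 0.333, the smallest possible here). The part of these cells in the Csf1r values was not tested.

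The share of Csf1r in the counts of Csf1r and Csf3r, a within-library ratio of a macrophage to a neutrophil growth factor receptor, was 69.5% and 66.8% in WT (Wilson 95% intervals 61.8% to 76.3% and 60.0% to 73.0%). It was 51.6% and 72.0% in KO (42.9% to 60.1% and 64.3% to 78.6%). KO library 1 was lowest and KO library 2 highest, so the genotypes overlapped (exact permutation test, two-sided p = 1).

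**Figure D2:**
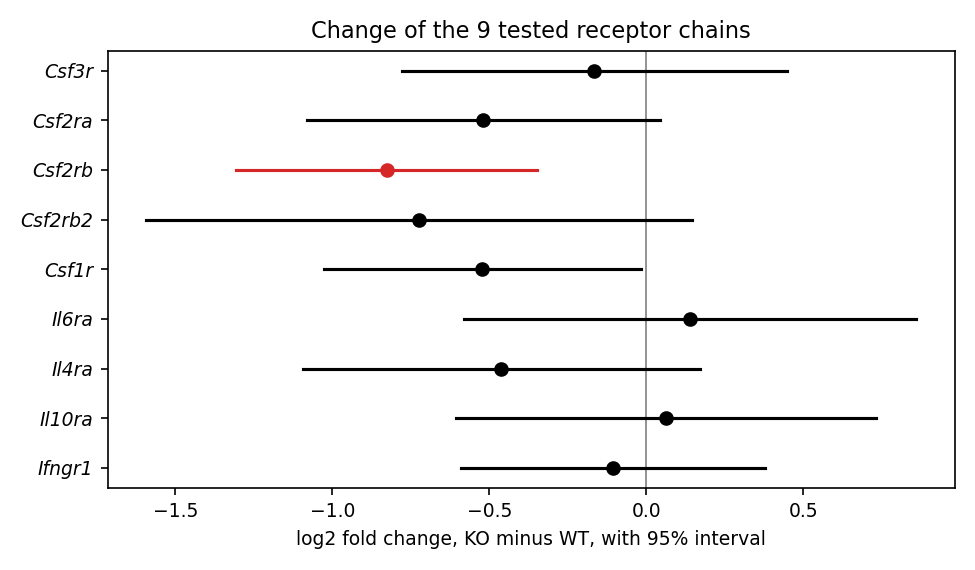
Log2 fold change, KO minus WT, of the 9 tested receptor chains with 95% intervals from edgeR's quasi-likelihood fit, with Csf2rb, the gene called at an adjusted p below 0.05, in red. The intervals of Csf2rb and Csf1r leave out 0, and those of the other 7 include it.

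The chains of the IL-6 receptor did not separate the genotypes. Il6ra, which binds IL-6, had 35.3 and 64.3 CPM in WT and 49.1 and 62.8 CPM in KO, with the KO values between the WT values. Its log2 fold change was 0.14 (95% interval −0.58 to 0.86), and its sign turned without WT library 1 (−0.21) and without KO library 2 (−0.05). Il6st encodes gp130, the signalling chain of the IL-6 family. It was counted 7 and 7 times in WT against 11 and 2 times in KO, too few for the fit. The ratio of summed counts, scaled by library size, was 0.889 KO to WT. Its exact 95% interval, for counting error only, ran from 0.385 to 2.04. Equal levels lie within that interval, as do changes in either direction.

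Il4ra, the chain for IL-4 and IL-13, had 81.4 and 67.6 CPM in WT and 64.2 and 43.5 CPM in KO. KO lay below WT, with a log2 fold change of −0.46 ± 0.30 (95% interval −1.09 to 0.17, adjusted p = 0.450 in edgeR) that did not pass. Il10ra, which binds the anti-inflammatory cytokine IL-10, had 58.4 and 46.5 CPM in WT and 61.7 and 47.1 CPM in KO. Its libraries were interleaved, at a log2 fold change of 0.06 (95% interval −0.61 to 0.73). Ifngr1, the ligand-binding chain for interferon-γ, had 144 and 145 CPM in WT and 106 and 163 CPM in KO. The WT values lay between the KO values, at a log2 fold change of −0.11 (95% interval −0.59 to 0.38). Signs turned for Il10ra without WT library 2 (−0.10) or KO library 1 (−0.16), for Ifngr1 without KO library 1 (0.16) and for Csf3r without KO library 2 (0.11). For none of these do the intervals show equal levels, since they hold changes of about the size measured for Csf2ra.

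As a group, the 9 tested chains had a median log2 fold change of −0.46 against 0.00 over all 7685 tested genes. Values were below 0 for 7 of the 9 and for 49.7% of tested genes. Libraries of the genotypes did not overlap for 5 of the 9, all with KO below WT, where 48.2% of tested genes did not overlap (23.6% with KO below and 24.5% with KO above). Within the members' range of mean CPM, 47.9% did not overlap. The summed level of the 10 genes was 874 and 833 CPM in WT and 652 and 664 CPM in KO. When a library was left out, the median ran from −0.50 (without KO library 1) to −0.33 (without KO library 2). With Csf2rb and Csf2rb2 summed to 1 gene it was −0.31.

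By Euclidean distance of centred log2 CPM over the 4 libraries, the tested genes with the pattern most like Csf2rb were Iqgap3 (distance 0.0313), Ap3m1 (0.0613) and Pno1 (0.0636). Iqgap3, a scaffold protein gene, was counted 15 and 15 times in WT against 9 and 8 times in KO, with adjusted p = 0.458 in edgeR. None of the 3 was called. Likeness over 4 libraries is a description only.

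Other receptor chains of cytokines moved in both directions. Of 23 tested among 44 with a row, 1 was lower and 1 higher, with a median of 0.10. Calls in this list and in the lists below stand against 3.27% of all tested genes called lower and 2.71% called higher. Epor, the erythropoietin receptor, rose from 121 and 92.0 CPM in WT to 198 and 252 CPM in KO. KO was above WT in each library, with a log2 fold change of 1.09 ± 0.21 (adjusted p = 0.00457 in edgeR). In the same libraries 12 of 18 tested erythroid markers, Epor among them, were called higher and 0 lower. Tnfrsf1a, a receptor for tumour necrosis factor, fell from 76.8 and 82.0 CPM in WT to 36.5 and 39.8 CPM in KO (log2 fold change −1.06 ± 0.29, adjusted p = 0.0442 in edgeR). Its call was lost whichever library was left out, with adjusted p from 0.0608 to 0.151, in DESeq2 (adjusted p = 0.138), with library totals alone (0.0513) and with a filter of 1 CPM in 2 libraries (0.0655). Ifngr2, the partner of Ifngr1, was counted 20 and 19 times in WT against 14 and 14 times in KO, a log2 fold change of −0.56 ± 0.49 that did not pass. Il10rb, the partner of Il10ra, had −0.30 ± 0.37, and Il2rg, the γ chain that joins Il4ra, had −0.18 ± 0.32. Il3ra, which pairs with the β chains to bind IL-3, was counted 0 and 4 times in WT against 3 and 1 times in KO. Ifngr2, Il10rb, Il2rg and Il3ra were named as partners of the members, after their values were seen.

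Most ligands of the 10 receptors had few counts. Of 13 with a row, 2 passed the filter, Osm and Clcf1, both of the IL-6 family, and 0 were called in edgeR, at an unadjusted p below 0.05, in DESeq2 or in limma-voom. Osm, encoding oncostatin M, was counted 34 and 75 times in WT against 45 and 52 times in KO. Csf3, encoding G-CSF, had 1 count in WT library 1 and 0 in the other libraries, and Csf1 was counted 4 and 2 times in WT against 2 and 1 times in KO. Csf3 and Csf1 were named after their values were seen. The listed ligand genes Csf2, which encodes GM-CSF, Il5, Il13 and Cntf had no row, so their levels are not known here.

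**Figure D3:**
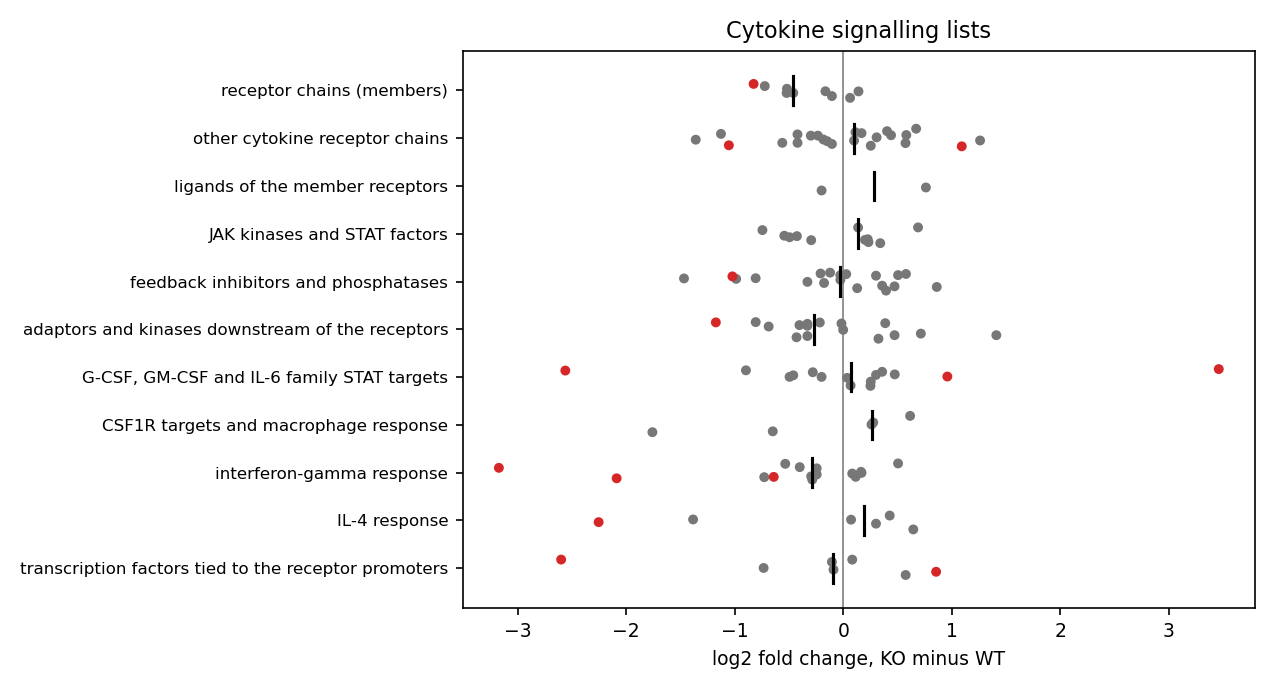
Log2 fold change, KO minus WT, of each tested gene in the receptor chains and in 10 lists of cytokine signalling genes, with genes called at an adjusted p below 0.05 in red and a bar at each median. Medians of the lists run from −0.29 for the interferon-γ response to 0.28 for the ligands, and called genes lie on both sides of 0.

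Kinases and STAT factors that carry the signal showed 0 calls among 11 tested in edgeR, 0 at an unadjusted p below 0.05, and 0 in DESeq2 and limma-voom. Their median was 0.14. Jak1, the kinase bound by gp130 and by the interferon receptors, had 253 ± 19.8 CPM in WT and 295 ± 54.2 CPM in KO (mean ± SD, n = 2 each). Among feedback inhibitors and phosphatases, 1 of 19 tested was lower and 0 higher in edgeR, with a median of −0.03. It was Usp18, which shuts off the type I interferon receptor, with a log2 fold change of −1.02 ± 0.28 (adjusted p = 0.0432 in edgeR). That call too was lost whichever library was left out, with adjusted p from 0.0674 to 0.137, in DESeq2 (adjusted p = 0.131) and with a filter of 1 CPM in 2 libraries (0.0627). Among adaptors and kinases downstream, 1 of 16 was lower and 0 higher, with a median of −0.27.

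Genes downstream of the receptors went in different directions. Over all tested genes, 3.27% were called lower and 2.71% higher in edgeR. In the list of STAT targets of G-CSF, GM-CSF and IL-6, 1 of 15 tested was lower and 2 were higher, with a median of 0.07. Il4ra and Osm, described above, are also in this list. Lcn2, a neutrophil granule lipocalin, fell by 2.56 ± 0.13 on the log2 scale (adjusted p = 1.45e-09 in edgeR), whereas the kinase gene Pim1 rose by 3.46 ± 0.22 (adjusted p = 3.39e-08) and the AP-1 gene Junb rose by 0.96 ± 0.17 (adjusted p = 0.00184). Lcn2 also belongs to the granule markers of neutrophil precursors, of which 11 of 11 tested were called lower. Among genes of the interferon-γ response, 3 of 15 were lower and 0 higher, with a median of −0.29. Igtp and Irgm2, both interferon-inducible GTPases, had log2 fold changes of −2.09 ± 0.23 and −3.17 ± 0.45 (adjusted p = 2.52e-05 and 0.000314 in edgeR), and B2m, the light chain of MHC class I, fell by 0.64 ± 0.12 on that scale (adjusted p = 0.00327).

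In the IL-4 response list, 1 of 6 tested was lower and 0 higher, with a median of 0.19. That gene, Chi3l3, fell by 2.25 ± 0.13 on the log2 scale (adjusted p = 5.40e-09 in edgeR) and encodes a chitinase-like protein that neutrophil precursors also make in quantity. It is among the granule markers above. Among genes that respond to Csf1r, 0 of 5 tested were called in edgeR, DESeq2 or limma-voom and 2 had an unadjusted p below 0.05, with a median of 0.26. Its most abundant genes, Fos and Dusp1, had log2 fold changes of 0.26 ± 0.19 and 0.28 ± 0.16. Without WT library 2, 3 of these genes were called higher. Without WT library 1, and without KO library 2, 1 was called lower. Of 7 tested transcription factors tied to the receptor promoters, 1 was lower and 1 higher, with a median of −0.09. Cebpe, a factor of granule formation, fell by 2.60 ± 0.37 and Gata1, the erythroid factor, rose by 0.85 ± 0.18 (adjusted p = 0.000318 and 0.00733 in edgeR). Cebpe and Gata1 are also markers in the precursor and erythroid lists.

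**Figure D4:**
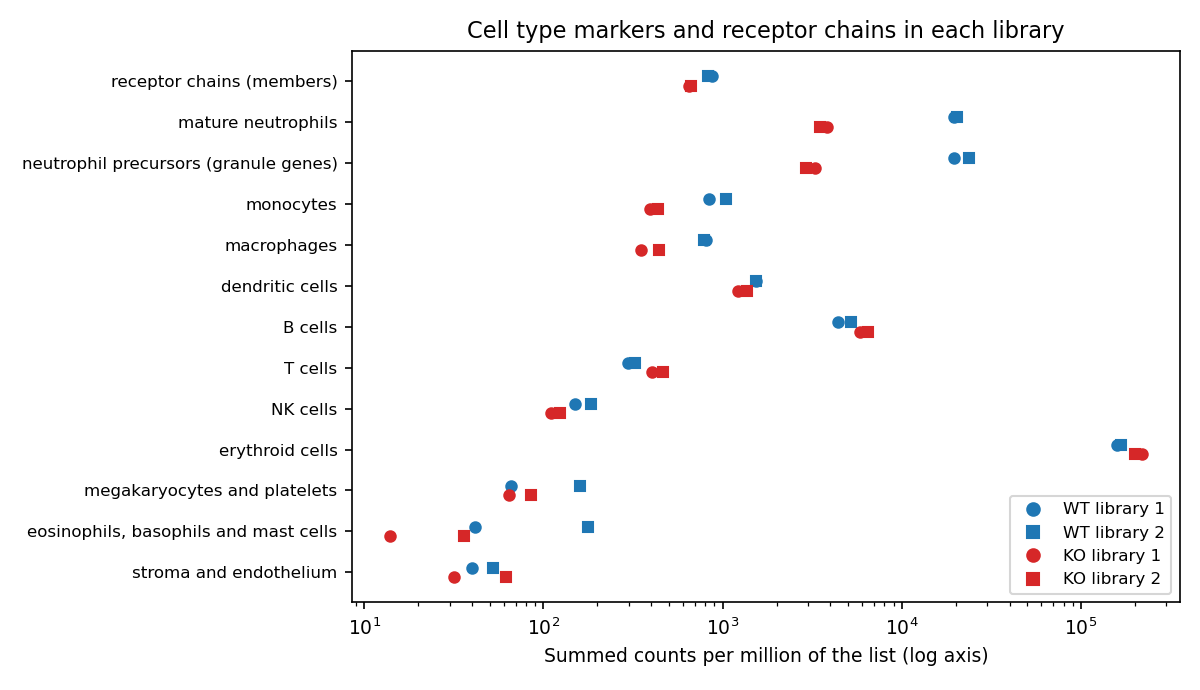
Summed CPM (log axis) of the 10 receptor chains and of each list of cell type markers except melanoma in each library. WT is in blue and KO in red, and the melanoma list, at 0 in WT library 1, is not drawn. The receptor chains lie at 833 and 874 CPM in WT and at 652 and 664 CPM in KO, while mature neutrophil markers lie at 19656 and 20325 CPM in WT and at 3826 and 3516 CPM in KO.

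Cell type markers that moved in the same libraries are given here for comparison with the receptor values. Summed markers of mature neutrophils stood at 19656 and 20325 CPM in WT and 3826 and 3516 CPM in KO. Monocyte markers stood at 834 and 1045 CPM in WT and 395 and 435 CPM in KO. Of the 8 tested, 6 had a lower and 2 a higher fold in KO. Ly6c2, the best counted of them in WT, had 291 and 464 counts in WT against 70 and 120 in KO. Cd14 had 31 and 44 counts in WT against 58 and 66 in KO. Ly6c2 and Cd14 were named after their values were seen. Markers of B cells had 4429 and 5186 CPM in WT and 5849 and 6439 CPM in KO, with 0 of 10 tested called in edgeR and 3 at an unadjusted p below 0.05. Markers of T cells had 296 and 326 CPM in WT and 403 and 466 CPM in KO. Markers of NK cells had 149 and 185 CPM in WT and 109.6 and 124 CPM in KO, but 4 of the 5 tested had a higher fold in KO, with a median of 0.26. Most of that sum in WT, but not in KO, was Nkg7, a cytotoxic granule gene named after its values were seen. It was counted 59 and 123 times in WT against 21 and 33 times in KO. Sums of neutrophil, monocyte and macrophage markers were thus lower, and those of B and T cells higher, in both KO libraries. The part of these shifts in the receptor values was not tested.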

How the data were processed

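RNA of 4 libraries, 2 WT and 2 KO, was sequenced. The deposited table holds whole-number read counts per gene name, not normalized by the authors. The submitters' processing notes name Bowtie 0.12.2 and the builds mm8 and mm9. They state no counting program, annotation, strand setting or filter, so overlapping and antisense genes may share reads. With the build not settled, coordinates are given only for RefSeq promoter windows, in GRCm38.p6. Of 21831 rows, 205 names stood on several rows with identical values, and each name was kept once. Columns gave the genotype, not the sample, so library numbers are only names.

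KO was compared with WT by the quasi-likelihood test of edgeR 4.0.16 in R 4.3.3, with TMM scaling, filterByExpr (minimum count 10, minimum total 15) and Benjamini-Hochberg adjustment over the genes tested, at a threshold of 0.05. The procedure was tested on simulated data. CPM use the sum over the tested genes times the TMM factor as library size, while shares of counts and the limits for 0 counts use all genes. The SE is the size of the log2 fold change over the square root of the F statistic. The libraries of a genotype differed by more than sampling noise (chi-square per gene of 2.98 for WT and 2.58 for KO, against 8.56 to 9.36 across genotypes).

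Alternatives were RLE size factors, library totals alone, no filter, 1 CPM in 2 libraries, DESeq2 1.42.0, limma-voom (limma 3.58.1), a looser threshold of 0.1, and fits without each library. Added after the data were seen were fits without haemoglobin and mitochondrial genes, fits without erythroid, haemoglobin, B cell and immunoglobulin genes, and a sum of Csf2rb and Csf2rb2. The members and lists were chosen with earlier results of these data known. Named genes were the 10 members, up to 4 called genes of each signalling list by smallest p or, with none called, its 2 most abundant, and the 3 genes with the pattern nearest to a called member (log2 CPM, prior count 2). Exceptions are named in the text. Some genes that this rule names are not reported here. Protein sequences were not used here.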

Additional observations from a re-analysis of the deposited data

How the results depend on the processing

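The count of receptor chains called higher was 0 in every alternative run. The count called lower was 1, except 0 in DESeq2, and ran from 0 to 1 over the fits that left out a library. It was 0 without WT library 1, and without KO library 2 the 1 chain called was Csf1r in place of Csf2rb. Calls over all genes numbered 459 (208 higher) and 700 (331 higher) at an adjusted p below 0.1, and 430 to 545 in fits that left out a library. No scaling moved the median of all genes by as much as 0.1 on the log2 scale. Signs of receptor chains turned only in fits that left out a library: over those, Csf3r ran from −0.50 to 0.11, Il6ra from −0.21 to 0.66, Il10ra from −0.16 to 0.25 and Ifngr1 from −0.45 to 0.16. Csf2ra, Csf2rb, Csf2rb2, Csf1r and Il4ra kept a negative value in every alternative run that tested them. The causes were not tested. In such fits a genotype has 1 library, which is taken to vary as the other genotype does. For strongly changed genes such as Chi3l3, these fits and the fit without a filter gave far smaller p-values than the main fit. Passing the threshold in them is therefore not equal to passing it in the main fit. No paired analysis was possible because the columns' numbers do not tie libraries across genotypes. With 19 to 135 counts per library for the 9 tested chains, depth limits each statement that a chain was not called.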
